A study of Homo sapiens with 24 samples.

Results

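The 10 genes described here belong to the Hippo-YAP pathway: the angiomotin genes AMOT, AMOTL1 and AMOTL2, the coactivator genes YAP1 and WWTR1, the DNA-binding partners TEAD1 and TEAD4, and the target genes ANKRD1, CCN1 (written CYR61 in the tables of the sorted lines) and CCN2 (written CTGF there). They were chosen by symbol, out of 18248 to 60651 genes listed in each of 4 tables. Rows were found for 10 of 10 members in Hs578T and in both MDA-MB-231 experiments, and for 9 of 10 in HCC70, where ANKRD1 had no row. That table lists 0 genes without a read, so no value is given for ANKRD1 in HCC70.

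RNA-Seq was performed on 24 libraries from 3 established triple-negative breast cancer (TNBC) cell lines, as 8 groups of 3 biological replicates. From wild-type Hs578T and from wild-type HCC70, breast cancer stem-like cells (BCSCs), gated as CD24-CD44+ and ALDH+, were separated by FACS from non-BCSCs, which lacked both markers. MDA-MB-231 cells carried either a control sgRNA (sgCtrl) or KIF20A sgRNA #1 (KIF20A sg1, called a knockdown in the labels), delivered by lentivirus with puromycin selection, so each group is a selected pool and 1 guide stands for the depletion. In the last experiment MDA-MB-231 cells carried an empty control vector (EV) or are labelled KIF20A overexpression (KIF20A OE). The study asked what KIF20A, a mitotic kinesin, does in BCSCs. Each experiment was treated as its own batch, so cell line, experiment and batch cannot be told apart when levels are set side by side across tables.

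Hippo signaling is a kinase cascade that ends in the phosphorylation of YAP and TAZ, the proteins of YAP1 and WWTR1, and keeps them out of the nucleus. Unphosphorylated YAP and TAZ bind TEAD transcription factors and switch on genes such as CCN1, CCN2 and ANKRD1. Angiomotins are scaffold proteins at cell junctions and on actin that hold YAP and TAZ in the cytoplasm, and AMOTL2 is itself known as a target gene. The phosphorylation and the holding in the cytoplasm act on proteins, which RNA-Seq does not measure. It reads only transcripts, among them those of the target genes.

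All 10 genes are protein coding. In GENCODE 44 on GRCh38, AMOT lies at chrX:112774503-112840831, AMOTL1 at chr11:94706431-94876748 and AMOTL2 at chr3:134355347-134375479. YAP1 lies at chr11:102110447-102233424, WWTR1 at chr3:149517235-149736714, TEAD1 at chr11:12674421-12944737 and TEAD4 at chr12:2959330-3040676. The targets lie at chr10:90912096-90921087 for ANKRD1, chr1:85580761-85584589 for CCN1 and chr6:131948176-131951372 for CCN2. Exons of opposite-strand genes overlap those of WWTR1 over 756 bases, YAP1 over 639, AMOTL1 over 496 and CCN2 over 278. The libraries are stranded, but whether the counting used the strand is not stated, so reads of these partners may be included. Same-strand exons of MIR4329 and of the pseudogene RPL39P5 overlap AMOT and AMOTL2 over 71 and 187 bases.

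The Hs578T libraries held 28404318 to 33974984 recovered reads, those of HCC70 24984522 to 33986627, and the MDA-MB-231 libraries 41424338 to 51018667 with sgRNA and 15971297 to 22182293 in the overexpression experiment. The libraries labelled KIF20A OE departed from the labelled cell line, and every result from them below stands beside these values. Of 6 mesenchymal markers of MDA-MB-231, CD44 was 523 to 788 CPM in EV and 0.125 to 1.23 in KIF20A OE, and AXL was 811 to 1107 and 0.750 to 0.811. The sum of the 6 was 6096 to 8020 CPM in EV and 684 to 1152 in KIF20A OE, with SPARC not lower (6.28 to 36.9 and 27.6 to 74.6 CPM). The sum of 6 markers of embryonic kidney cell lines (IRS4, PAX2, LHX1, NEFM, NEFL and LIN28B) was 0 to 0.143 CPM in EV, where 4 of the 6 had no read, and 1396 to 1948 in KIF20A OE, where all 6 had reads. CDKN2A, a gene deleted in MDA-MB-231, had 0 reads in all EV, sgCtrl and KIF20A sg1 libraries and 276 to 353 CPM in KIF20A OE. The part of these markers in the results below was not tested. HCC70 carried epithelial markers (summed 5631 to 6367 TPM over its libraries), and Hs578T carried mesenchymal ones (7329 to 7587 TPM).

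The paper picked KIF20A partly for being higher in BCSCs of these sorted libraries, so a rise there does not check the labels. KIF20A, the gene named in the labels of both MDA-MB-231 experiments, was read first. It rose in BCSCs of Hs578T from 214, 218 and 218 to 271, 295 and 323 TPM (log2 fold change 0.45 ± 0.06, SE, adjusted p = 0.00718 by limma) and in those of HCC70 from 68.7, 71.4 and 74.0 to 123, 123 and 129 TPM (0.80 ± 0.05, adjusted p = 0.00157). With sgRNA #1 it was 91.1, 122 and 145 against 153, 156 and 173 in sgCtrl, groups that did not overlap but did not pass the test (-0.45 ± 0.16, adjusted p = 0.690 by limma). The paper showed depletion by sgRNAs in MDA-MB-231 by immunoblot, a measure of protein that these transcript values do not test. The libraries labelled KIF20A OE held 269, 896 and 1348 CPM against 101, 124 and 143 in EV (2.49 ± 0.51, adjusted p = 0.00249 by limma). These values do not tell which cell line those libraries hold.

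Levels in the untreated or control groups differed widely between cell lines. They were set side by side as reads per kilobase of the authors' gene length per 1000000 reads (RPKM), as mean ± SD with n = 3. The lengths come from the sorted lines and were applied to MDA-MB-231 as well. They depend on the annotation, at 5367 bases for WWTR1 and 2293 for CCN1 against 8353 and 3698 in GENCODE. AMOT was 22.3 ± 1.39 in HCC70 non-BCSCs and 0.476 ± 0.024 in Hs578T non-BCSCs. In sgCtrl it had 0 reads in 3 of 3 libraries, which allows up to 3 reads in a library, and EV held 5 reads, all in 1 library. CCN2, a secreted matricellular protein, was 302 ± 81.0 in EV, 81.4 ± 1.03 in Hs578T non-BCSCs, 61.4 ± 13.2 in sgCtrl and 1.14 ± 0.11 in HCC70 non-BCSCs. HCC70 non-BCSCs thus stood high in AMOT and low in CCN2, and the 3 other untreated or control groups the other way round.

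CCN1, the other secreted target, was 572 ± 55.8 RPKM in sgCtrl, 260 ± 65.4 in EV, 119 ± 1.47 in Hs578T non-BCSCs and 14.9 ± 0.76 in HCC70 non-BCSCs. ANKRD1, a nuclear ankyrin repeat protein, was 94.0 ± 17.1 in sgCtrl, 40.0 ± 6.10 in EV and 0.488 ± 0.088 in Hs578T non-BCSCs. Both genes were thus highest in the MDA-MB-231 controls. TEAD1 showed the same order of lines, at 40.8 ± 2.83 in EV, 40.3 ± 4.44 in sgCtrl, 25.9 ± 0.37 in Hs578T non-BCSCs and 8.77 ± 0.51 in HCC70 non-BCSCs, and the 2 MDA-MB-231 groups overlapped. AMOTL1 was likewise lowest in HCC70, at 6.15 ± 0.31 in its non-BCSCs against 24.2 ± 0.42 in Hs578T, 20.5 ± 2.87 in sgCtrl and 18.8 ± 4.13 in EV, where the last 2 overlapped. AMOTL2 ran otherwise, at 41.6 ± 1.15 in HCC70 non-BCSCs, 39.4 ± 3.71 in sgCtrl (overlapping HCC70), 25.4 ± 2.76 in EV and 16.2 ± 0.97 in Hs578T non-BCSCs.

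The 2 MDA-MB-231 control groups, from different experiments, also stood apart. WWTR1 was 14.8 ± 1.06 RPKM in sgCtrl and 63.4 ± 9.13 in EV, against 79.4 ± 1.93 in Hs578T and 42.4 ± 2.56 in HCC70 non-BCSCs. YAP1 was 49.5 ± 2.57 in sgCtrl and 55.8 ± 5.60 in EV, which overlapped, and 32.6 ± 0.88 and 27.5 ± 0.59 in HCC70 and Hs578T non-BCSCs. TEAD4 was 9.11 ± 1.22 in sgCtrl and 18.2 ± 5.49 in EV. Vector, batch and culture cannot be told apart there.

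**Figure D1:**
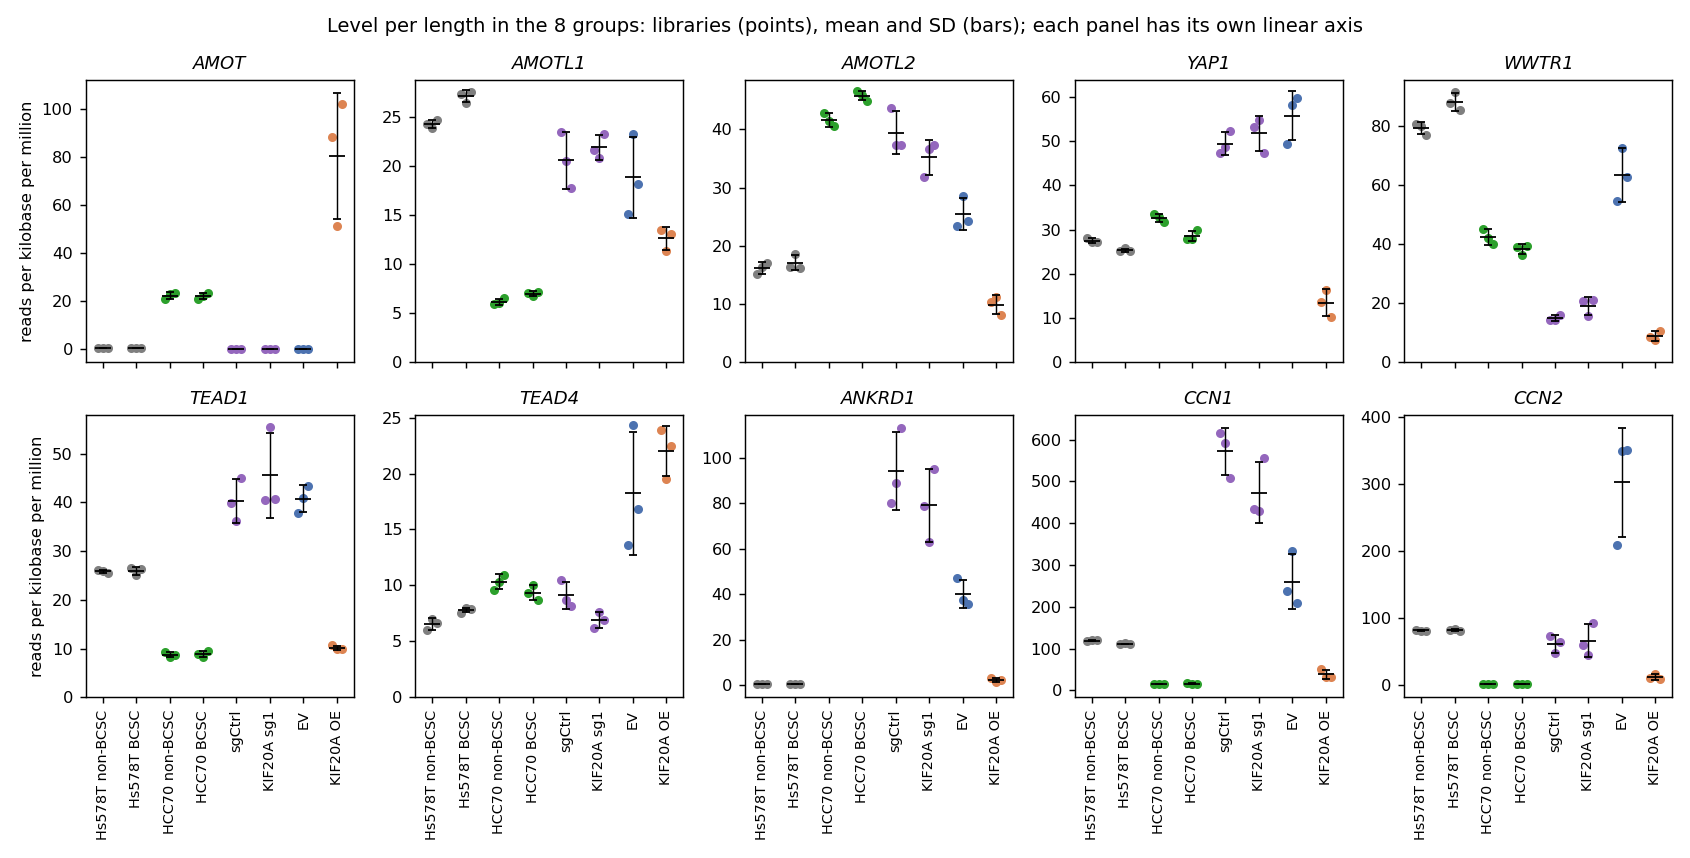
Level of each member in the 8 groups, in RPKM on a separate linear axis for each gene. Points are libraries and bars the mean and SD of 3. AMOT stands above 20 only in HCC70 and in the libraries labelled KIF20A OE, and CCN2 lies under 2 in HCC70 and between 209 and 350 in EV.

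The composition of each family was taken as a share within each library, which does not depend on how the library was scaled. Of the angiomotin transcripts in non-BCSCs of Hs578T, AMOTL1 made 59.3% ± 1.35 (SD, n = 3), AMOTL2 39.6% ± 1.32 and AMOT 1.16% ± 0.040. In HCC70 non-BCSCs AMOTL2 made 59.5% ± 2.03, AMOT 31.8% ± 1.76 and AMOTL1 8.78% ± 0.41, and in sgCtrl AMOTL2 made 65.8% ± 1.75 and AMOTL1 34.2% ± 1.75. WWTR1 made 74.2% ± 0.38 of the YAP1 and WWTR1 transcripts in Hs578T non-BCSCs, 56.5% ± 0.84 in HCC70 non-BCSCs, 23.1% ± 0.52 in sgCtrl and 53.1% ± 2.27 in EV. With GENCODE gene lengths these shares were 67.3%, 48.1%, 17.6% and 44.6%. Which of the pair led in HCC70 and in EV thus depended on the lengths used. Among the TEAD genes, TEAD1 led in Hs578T (44.01% ± 1.67) and in sgCtrl (46.2% ± 6.93), and TEAD2 led in HCC70 (50.5% ± 1.93, where TEAD1 made 13.5% ± 1.73). TEAD4 made between 10.4% and 17.7% of the family in the 4 untreated or control groups.

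**Figure D2:**
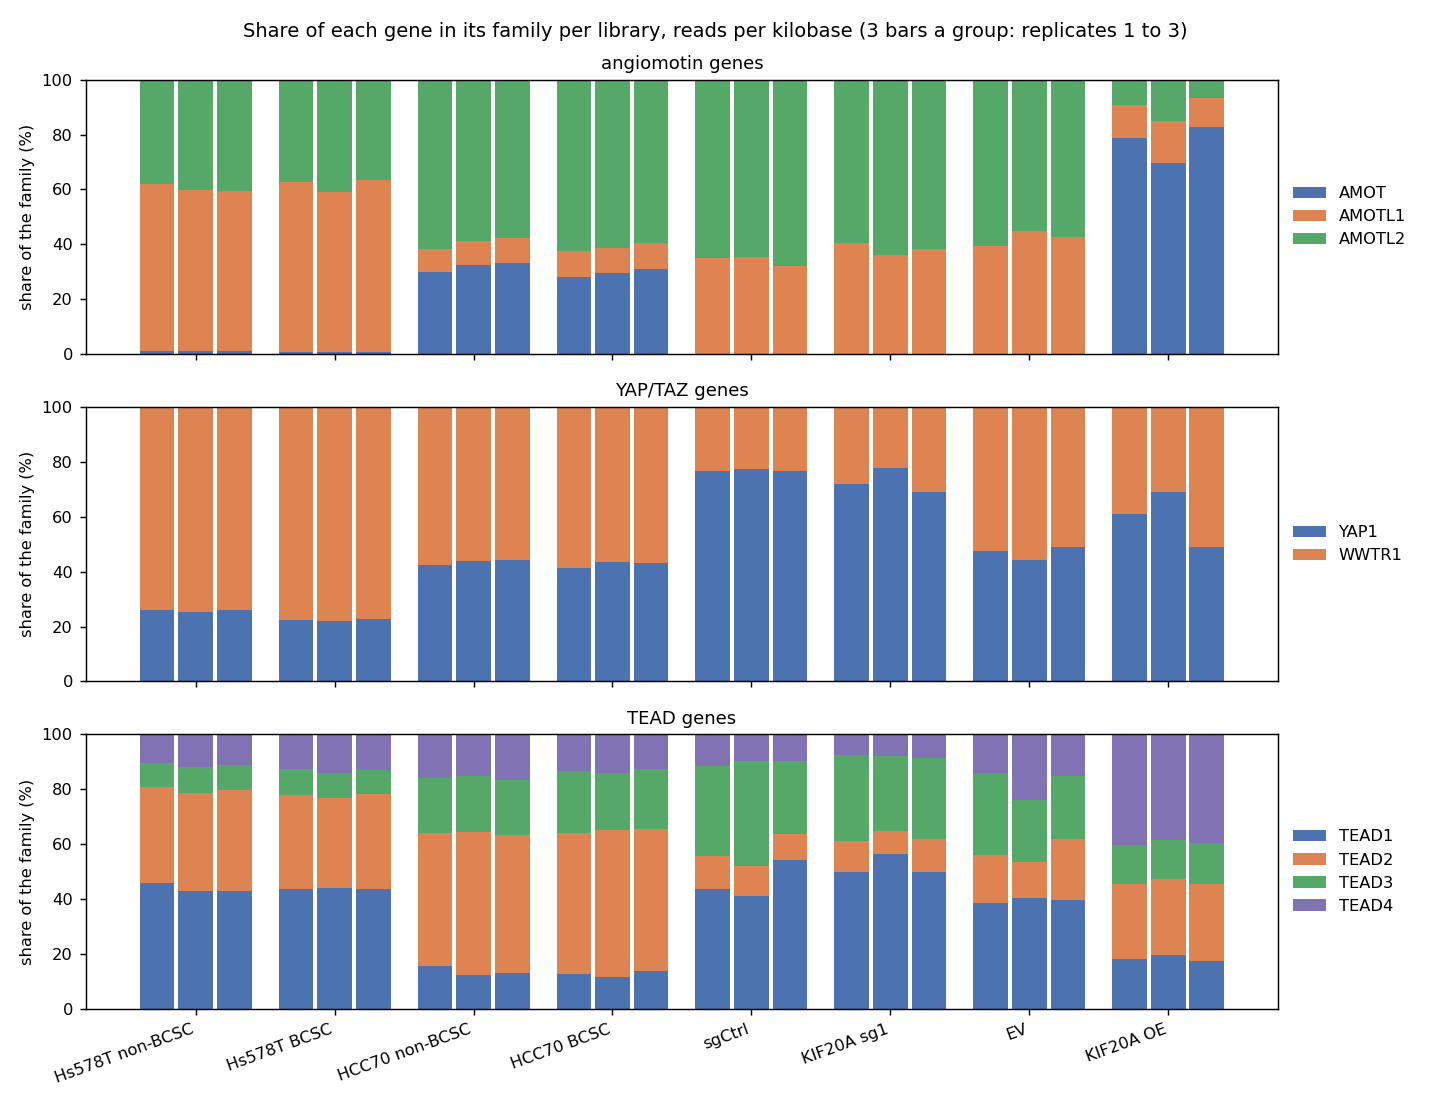
Share of each gene in its family, in percent of reads per kilobase, for each of the 24 libraries, with 3 bars a group for replicates 1 to 3. AMOT makes 69.5% to 82.8% of the angiomotin transcripts in the libraries labelled KIF20A OE and under 0.1% in EV.

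The first comparison asked how BCSCs differ from non-BCSCs in Hs578T. None of the 9 members tested passed (limma on log2(TPM + 1), adjusted p under 0.05), where 7.15% of all 13324 genes tested did (2.9% higher and 4.26% lower). ANKRD1, with 25, 37 and 28 reads in non-BCSCs and 16, 23 and 24 in BCSCs, had a mean under 1 TPM and was not tested. Unadjusted p was under 0.05 for 5 of the 9, against 22.5% of all genes, and the groups did not overlap for 6 of the 9, 3 higher and 3 lower, against 29% of all genes (12% higher and 17% lower).

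TEAD4 was nearest to the threshold, at 14.7, 15.7 and 17.1 TPM in non-BCSCs and 18.0, 18.6 and 19.1 in BCSCs, every BCSC library above every other (log2 fold change 0.22 ± 0.06, SE, adjusted p = 0.0849 by limma). WWTR1 was 183, 195 and 197 TPM in non-BCSCs and 207, 208 and 215 in BCSCs, which again did not overlap (0.13 ± 0.05, adjusted p = 0.131). AMOTL1 was 57.9, 58.4 and 59.1 TPM in non-BCSCs and 61.9, 64.7 and 66.6 in BCSCs, without overlap (0.14 ± 0.04, adjusted p = 0.116). YAP1 lay the other way, at 64.4, 66.0 and 68.7 TPM in non-BCSCs and 59.8, 60.3 and 60.7 in BCSCs (-0.14 ± 0.04, adjusted p = 0.103). CCN1 was 285, 286 and 291 TPM in non-BCSCs and 262, 263 and 267 in BCSCs, also lower in every library (-0.12 ± 0.04, adjusted p = 0.103). AMOTL2, TEAD1 and CCN2 overlapped between the groups, and the 95% interval for CCN2 was -0.10 to 0.08. AMOT was 1.09 to 1.19 TPM in non-BCSCs and 0.864 to 0.955 in BCSCs (-0.16 ± 0.10, adjusted p = 0.395).

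These calls depended on the tool and the scaling. AMOTL1 and WWTR1 were called after rescaling by the median of ratios (adjusted p = 0.0326 and 0.0465) and by DESeq2 on recovered reads (0.00277 and 0.00339), and both of them with TEAD4 by edgeR (0.0142, 0.0242 and 0.0495). Over all alternatives the adjusted p ran from 0.00277 to 0.368 for AMOTL1, from 0.00339 to 0.316 for WWTR1 and from 0.0495 to 0.204 for TEAD4. The share of WWTR1 in YAP1 plus WWTR1, which no rescaling moves, was 74.2% ± 0.38 in non-BCSCs and 77.7% ± 0.37 in BCSCs (SD, n = 3, 3.44 points higher, exact two-sided permutation p = 0.1, the smallest that 3 against 3 allows). The TEAD4 share was 11.2% ± 0.57 and 13.2% ± 0.77, also without overlap (exact permutation p = 0.1).

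In HCC70, again 0 of 9 members tested passed by limma, where 2.83% of 13218 genes did (2.28% higher and 0.552% lower), and edgeR and DESeq2 also called 0. The unadjusted p was under 0.05 for 4 of the 9, against 23.7% of all genes, and the groups did not overlap for 4 of the 9, 2 higher and 2 lower, against 30.9% (20.9% higher and 10.1% lower). AMOTL2 was 100.5, 101 and 106 TPM in non-BCSCs and 115, 116 and 119 in BCSCs, with no overlap (0.19 ± 0.05, adjusted p = 0.0839 by limma). AMOTL1 was 14.6, 14.7 and 16.2 TPM in non-BCSCs and 16.8, 18.1 and 18.4 in BCSCs, with no overlap either (0.22 ± 0.07, adjusted p = 0.120). YAP1 was 78.9, 79.3 and 83.0 TPM in non-BCSCs and 69.9, 71.3 and 77.4 in BCSCs, lower in each (-0.14 ± 0.06, adjusted p = 0.190).

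CCN2 was low in HCC70, at 72 to 77 reads in non-BCSCs and 50 to 72 in BCSCs. In TPM it was 2.56, 2.74 and 3.09 against 1.61, 1.94 and 2.32, so the groups did not overlap (-0.37 ± 0.12, adjusted p = 0.131). AMOT, WWTR1, TEAD1, TEAD4 and CCN1 overlapped between the groups, with log2 fold changes of -0.09 to 0.12. The TEAD4 share of the TEAD transcripts was 15.8% ± 0.78 in non-BCSCs and 13.2% ± 0.63 in BCSCs, the opposite direction from Hs578T (exact permutation p = 0.1).

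The difference between the lines was tested as an interaction over the 12 sorted libraries. None of 9 members passed by limma, against 7.11% of 11666 genes. The unadjusted p was under 0.05 for 5 of the 9, against 26.8% of all genes. The effect in Hs578T exceeded that in HCC70 by 0.31 ± 0.10 (SE, log2) for TEAD4 (adjusted p = 0.0701), by 0.35 ± 0.11 for CCN2 (0.0719) and by 0.23 ± 0.08 for WWTR1 (0.110), and was lower for CCN1 (-0.24 ± 0.08, 0.0840). After rescaling by the median of ratios WWTR1 and CCN2 passed (adjusted p = 0.0364 and 0.0405). CCN2 also passed without HCC70 BCSC replicate 1 (0.0366) and CCN1 without HCC70 non-BCSC replicate 3 (0.0488). Over all alternatives the adjusted p was 0.0364 to 0.219 for WWTR1, 0.0366 to 0.148 for CCN2 and 0.0488 to 0.182 for CCN1.

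With KIF20A sgRNA #1 in MDA-MB-231, 0 of 9 members tested passed by limma, as did 0% of 12852 genes. Unadjusted p was under 0.05 for 2 of the 9, against 7% of all genes, and edgeR and DESeq2 called 0 members. The values here are reads divided by 1 factor per library, called signal below. WWTR1 was 75.4, 76.7 and 86.7 in sgCtrl and 86.3, 111 and 112 in KIF20A sg1, where the lowest depleted library lay just under the highest control (0.36 ± 0.14, SE, adjusted p = 0.690 by limma). TEAD4 was 17.8, 19.0 and 22.2 in sgCtrl and 13.3, 14.8 and 17.0 in KIF20A sg1, the 1 member of 9 whose groups did not overlap, against 13% of all genes, 5.73% higher and 7.3% lower (-0.36 ± 0.16, adjusted p = 0.690).

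None of the 3 target genes passed with sgRNA #1. CCN1 was 1175, 1375 and 1379 signal in sgCtrl and 997, 1010 and 1261 in KIF20A sg1 (log2 fold change -0.27, 95% interval -0.62 to 0.08). ANKRD1 was 155, 178 and 225 in sgCtrl and 128, 155 and 185 in KIF20A sg1 (-0.25, -0.62 to 0.13). CCN2 was 112, 151 and 167 in sgCtrl and 109, 139.6 and 215 in KIF20A sg1 (0.07, -0.42 to 0.57). AMOTL1, AMOTL2, YAP1 and TEAD1 overlapped too, with log2 fold changes of -0.15 to 0.17. As family shares, AMOTL1 went from 34.2% ± 1.75 to 38.3% ± 2.09 and AMOTL2, its mirror with AMOT near 0, from 65.8% ± 1.75 to 61.6% ± 2.10. The TEAD4 share went from 10.4% ± 0.96 to 7.95% ± 0.48. Each of these had an exact permutation p = 0.1, the smallest possible, against 0.4 for the WWTR1 share and 0.3 for that of TEAD1. AMOT had 0 reads in each sgCtrl library and 8, 4 and 0 in KIF20A sg1, near the limit of detection, and was not tested. The intervals of all 9 tested members lay between -0.71 and 0.66.

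**Figure D3:**
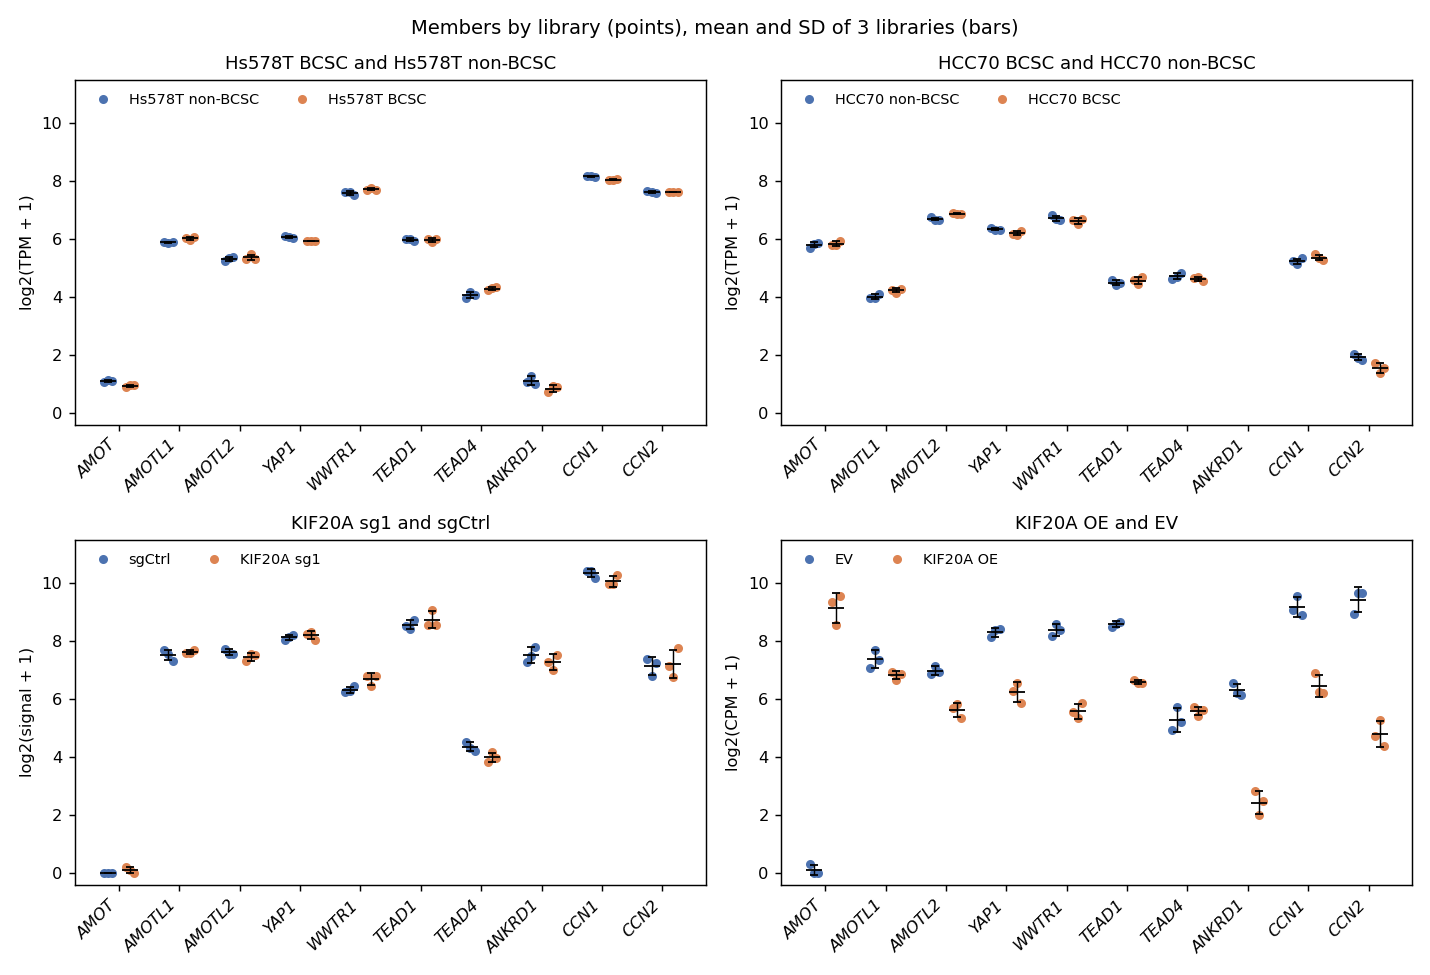
Members by library in the 4 comparisons, as log2(value + 1) of the deposited TPM, signal or CPM. Points are libraries and bars the mean and SD of 3. Groups lie close together in the first 3 panels, and 9 of 10 members are separate in the panel of EV and the libraries labelled KIF20A OE.

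Between EV and the libraries labelled KIF20A OE, 9 of 10 members passed by limma, 1 higher and 8 lower, where 69.7% of 15265 genes passed (46.2% higher and 23.4% lower). The groups of the same 9 did not overlap, against 74.1% of all genes (48.9% higher and 25.2% lower). These are the libraries whose markers departed from MDA-MB-231, and the part of that departure in each value below was not tested. Tissue markers moved as well, and CDKN2A, deleted in MDA-MB-231, was 0 CPM in EV and 276 to 353 in KIF20A OE. Which cells these libraries hold was not tested, so a change in RNA per cell cannot be read from the values below. Over all genes the median change was 0.37 (log2) and fell to 0.03 after rescaling by the median of ratios, which also turned the split of all calls from 66.3% higher to 50.6% higher. The members kept 1 higher and 8 lower under that rescaling.

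AMOT was the 1 member that rose. It was 0, 0 and 0.238 CPM in EV and 377, 653 and 752 in the libraries labelled KIF20A OE, all of which lay far above every EV library. EV held 5 reads of AMOT in 58703511 and KIF20A OE 32835 in 56832675, a ratio per read of 6783 with a counting interval of 2906 to 20892. On the log2(CPM + 1) scale the change was 9.05 ± 0.26 (SE, adjusted p = 9.97e-08 by limma). In these libraries AMOT reached 80.4 ± 26.3 RPKM (SD, n = 3), above its level in HCC70 (22.3 ± 1.39 in non-BCSCs).

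The other angiomotins fell. AMOTL2 was 116, 121 and 142 CPM in EV and 40.3, 51.3 and 55.7 in KIF20A OE, 2.58-fold lower on average and without overlap (-1.36 ± 0.15, adjusted p = 9.03e-05 by limma). AMOTL1 was 136, 164 and 209 CPM in EV and 101, 117 and 121 in KIF20A OE, 1.496-fold lower and also without overlap (-0.56 ± 0.17, adjusted p = 0.0168). The AMOTL1 call was lost without KIF20A OE replicate 2 (adjusted p = 0.0641, 7.31e-06 to 0.0641 over all alternatives). AMOT made 77.0% ± 6.84 of the angiomotin transcripts in KIF20A OE, against 0.028% ± 0.048 in EV, while AMOTL2 went from 57.7% ± 2.84 to 10.3% ± 4.42 and AMOTL1 from 42.3% ± 2.89 to 12.6% ± 2.43 (exact permutation p = 0.1 for each).

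Both coactivator genes fell. YAP1 was 281, 331 and 341 CPM in EV and 58.2, 77.3 and 93.0 in KIF20A OE, 4.17-fold lower (-2.07 ± 0.18, adjusted p = 1.89e-05 by limma). WWTR1 was 292.9, 337 and 391 CPM in EV and 39.6, 46.3 and 57.0 in KIF20A OE, 7.14-fold lower (-2.82 ± 0.17, adjusted p = 2.38e-06). Neither gene's groups overlapped. The WWTR1 share of the pair was 51.2%, 52.5% and 55.6% in EV and 31.1%, 38.8% and 50.9% in KIF20A OE, a narrow separation that 1 library sets (exact permutation p = 0.1).

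The 2 TEAD members parted. TEAD1 was 356, 386 and 409 CPM in EV and 92.5, 93.4 and 100.4 in KIF20A OE, 4.02-fold lower (-2.00 ± 0.11, adjusted p = 1.32e-06 by limma). TEAD4 was 29.4, 36.3 and 52.5 CPM in EV and 42.2, 48.5 and 51.7 in KIF20A OE, which overlapped (0.30 ± 0.21, adjusted p = 0.236). Rescaling by the median of ratios turned the TEAD4 value to -0.06, and leaving out EV replicate 2 called it higher (adjusted p = 0.0279, 0.0279 to 0.809 over all alternatives). Within the family TEAD4 went from 17.7% ± 5.46 to 39.5% ± 0.98 and TEAD1 went from 39.5% ± 0.94 to 18.3% ± 1.13, each without overlap (exact permutation p = 0.1). TEAD3, another family member, was 67.9 to 88.2 CPM in EV and 21.5 to 25.0 in KIF20A OE, and TEAD2 overlapped (31.3 to 57.3 and 32.8 to 37.8 CPM).

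All 3 target genes fell. CCN2 was 489, 816 and 819.9 CPM in EV and 19.8, 25.5 and 38.0 in KIF20A OE, 25.5-fold lower (-4.63 ± 0.27, adjusted p = 2.39e-06 by limma). ANKRD1 was 70.1, 73.8 and 92.6 CPM in EV and 3.02, 4.55 and 6.07 in KIF20A OE, 17.3-fold lower (-3.87 ± 0.23, adjusted p = 2.64e-06). CCN1 was 478, 544 and 764 CPM in EV and 74.2, 74.8 and 118 in KIF20A OE, 6.69-fold lower (-2.73 ± 0.23, adjusted p = 1.70e-05). No library of one group reached the range of the other for any of the 3. The library labelled KIF20A OE replicate 2 had the least KIF20A of its group (269 CPM). It also had the least AMOT, AMOTL1, WWTR1, TEAD4 and ANKRD1 and the most AMOTL2, YAP1 and CCN2. Replicate 1, with the most KIF20A, had the most AMOTL1, TEAD1, TEAD4, ANKRD1 and CCN1, while AMOT and WWTR1 were highest in replicate 3. With 3 libraries this order is a description.

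**Figure D4:**
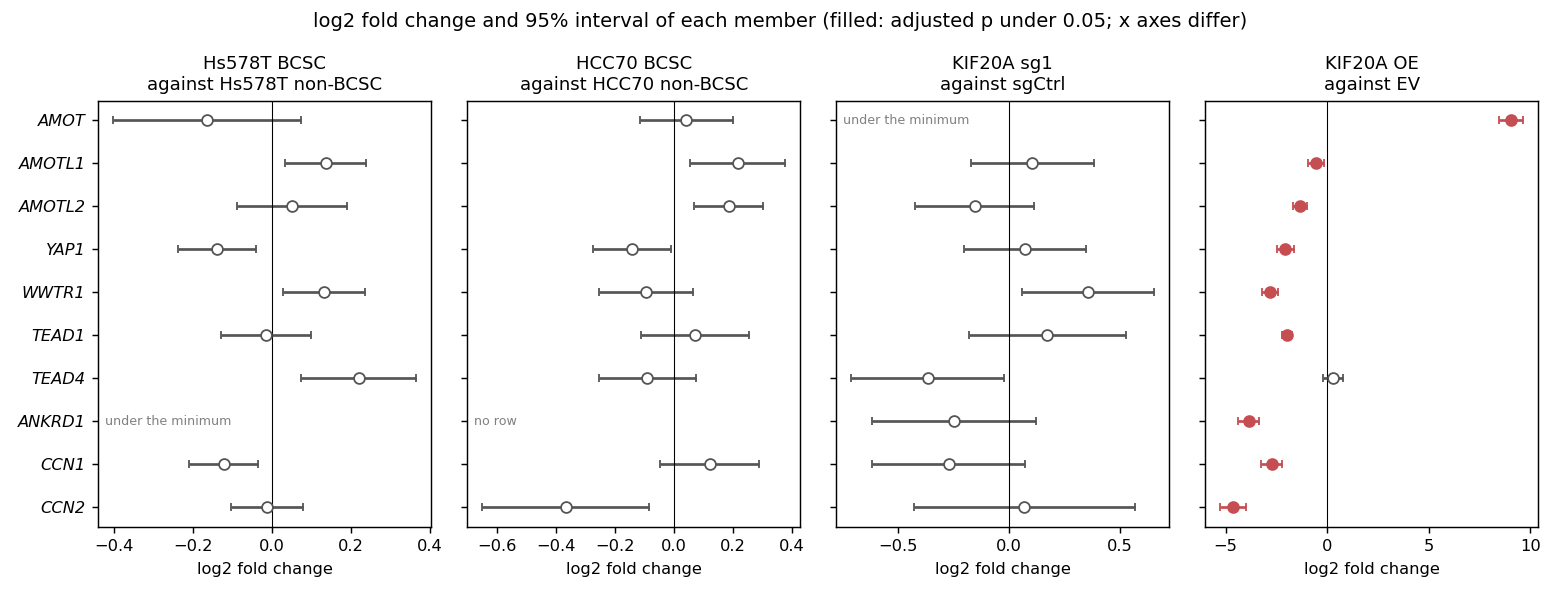
log2 fold change of each member with its 95% interval from limma, in the 4 comparisons, with x axes that differ. Filled points had an adjusted p under 0.05. The sorted and sgRNA comparisons stay within -0.71 and 0.66 with their intervals, whereas the libraries labelled KIF20A OE run from -4.63 for CCN2 to 9.05 for AMOT.

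The 250 bases before the gene start were read from RefSeq on GRCh38.p14, which held promoters for 7 of the 10 members. CCN1, TEAD1 and TEAD4 were not matched. Sequences of CCN2, ANKRD1, AMOTL2 and AMOT are printed below. TEAD proteins bind the letters GGAATG, or CATTCC on the other strand, and these are in capitals below. The sequences run 5′ to 3′ on the strand of the gene, which is the minus strand for each, up to the base before the start.
CCN2, chr6:131951373-131951622: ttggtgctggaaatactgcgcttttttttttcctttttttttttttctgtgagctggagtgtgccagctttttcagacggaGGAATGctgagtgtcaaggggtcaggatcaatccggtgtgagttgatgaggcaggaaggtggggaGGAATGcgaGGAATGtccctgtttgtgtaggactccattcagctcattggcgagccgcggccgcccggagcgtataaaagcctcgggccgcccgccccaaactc
ANKRD1, chr10:90921088-90921337: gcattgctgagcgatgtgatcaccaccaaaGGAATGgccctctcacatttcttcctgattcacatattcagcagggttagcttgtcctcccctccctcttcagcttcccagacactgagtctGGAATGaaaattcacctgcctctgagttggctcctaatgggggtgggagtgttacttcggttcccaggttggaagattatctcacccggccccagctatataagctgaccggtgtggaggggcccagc
AMOTL2, the downstream of 2 starts, chr3:134374448-134374697: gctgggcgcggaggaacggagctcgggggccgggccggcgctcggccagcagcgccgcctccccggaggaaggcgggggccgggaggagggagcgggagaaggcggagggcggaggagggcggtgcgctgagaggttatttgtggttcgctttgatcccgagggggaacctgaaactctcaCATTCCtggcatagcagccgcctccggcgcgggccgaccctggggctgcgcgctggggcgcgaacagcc
AMOT, chrX:112840832-112841081: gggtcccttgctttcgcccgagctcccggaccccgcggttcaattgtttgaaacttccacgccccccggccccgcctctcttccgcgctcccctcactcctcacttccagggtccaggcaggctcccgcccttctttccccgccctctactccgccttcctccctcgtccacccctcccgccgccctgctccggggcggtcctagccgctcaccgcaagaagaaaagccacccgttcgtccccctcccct

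CCN2 held 3 matches, which begin 169, 104 and 95 bases before the start, ANKRD1 held 2, at 220 and 128 bases, and AMOTL2 held 1, at 69 bases. YAP1 held 1 match, at 162 bases, and none was found for AMOT, AMOTL1, WWTR1 or the upstream start of AMOTL2. Of all 35116 windows of the same length, 11.9% held at least 1 match, 0.94% at least 2 and 0.083% at least 3. CCN2 and ANKRD1 are members because they are known targets, so these shares are no independent test of their matches. AMOTL1 (-0.56) and WWTR1 (-2.82) also fell in the libraries labelled KIF20A OE and held no match. The part of these letters in any change was not tested. A match describes the letters and is not evidence of binding in these cells.

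Other genes of the pathway were taken as 2 lists. Of 18 further YAP/TAZ-TEAD targets, 3 of 18 tested rose in Hs578T BCSCs by limma, against 2.9% of all genes higher: FJX1 (0.69 ± 0.12), IGFBP3 (0.48 ± 0.05) and AXL, a receptor tyrosine kinase (0.22 ± 0.05). The list median was 0.00 against -0.01 for all genes, and 1 target was called without any one of the 3 non-BCSC libraries. In HCC70, 0 of 12 tested were called by limma and 0 by edgeR and DESeq2, with 2 at an unadjusted p under 0.05 (median 0.07 against 0.02). With sgRNA #1, 0 of 18 were called by limma, edgeR and DESeq2, with 2 at an unadjusted p under 0.05 (median -0.05 against 0.00).

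Of the 18 targets, 17 were called in the libraries labelled KIF20A OE, 15 lower and 2 higher, where 69.7% of all genes were (23.4% lower and 46.2% higher). The list median was -2.40 against 0.37 for all genes. The largest falls were in NT5E, a surface nucleotidase (-9.93 ± 0.14), AXL (-9.08 ± 0.15), IGFBP3 (-8.39 ± 0.37) and MYOF (-8.27 ± 0.24), and the genes called higher were FOXF2 (3.33 ± 0.29) and NUAK2 (0.87 ± 0.30). AXL is also on the mesenchymal marker list. After rescaling, 15 stayed lower and 1 higher was called, with NUAK2 no longer passing.

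The second list held 29 Hippo kinases, adaptors, upstream membrane proteins and TEAD or VGLL partners. In Hs578T BCSCs 2 of 26 tested were called by limma, a share near the 7.15% of all genes: FAT4, a protocadherin upstream of the kinases, fell (-0.52 ± 0.06) and LIMD1, a LIM protein that binds LATS, rose (0.20 ± 0.04). There 1 was called when any library other than BCSC replicate 2 was left out. In HCC70 1 of 26 was called, where 2.83% of all genes were. It was VGLL1, a cofactor that binds TEAD (0.45 ± 0.06). With sgRNA #1, 0 of 27 were called by limma, edgeR and DESeq2, with 3 at an unadjusted p under 0.05. The HCC70 call was lost without any one of the BCSC libraries, where 0 were called. Of 26 tested, 19 were called in the libraries labelled KIF20A OE, 7 higher and 12 lower (4 and 17 after rescaling). The total was near the 69.7% of all genes. The split was not, as more of the list was lower, whereas 46.2% of all genes were higher and 23.4% lower. The list median was -0.35 against 0.37. SCRIB, called higher (0.28, adjusted p = 0.0452 by limma), turned to -0.08 on rescaling and was no longer called (adjusted p = 0.503). The 4 largest falls and the 4 largest rises among the called genes were in WWC3 (-5.78 ± 0.30), FRMD6 (-4.25 ± 0.14), the kinase TAOK3 (-2.26 ± 0.15), PTPN14 (-2.14 ± 0.20), the cadherin DCHS1 (3.07 ± 0.26), NF2, the merlin gene (1.99 ± 0.13), the kinase TAOK2 (1.46 ± 0.10) and the kinase LATS1 (1.203 ± 0.11). Both lists were put together with earlier results of these data known.

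**Figure D5:**
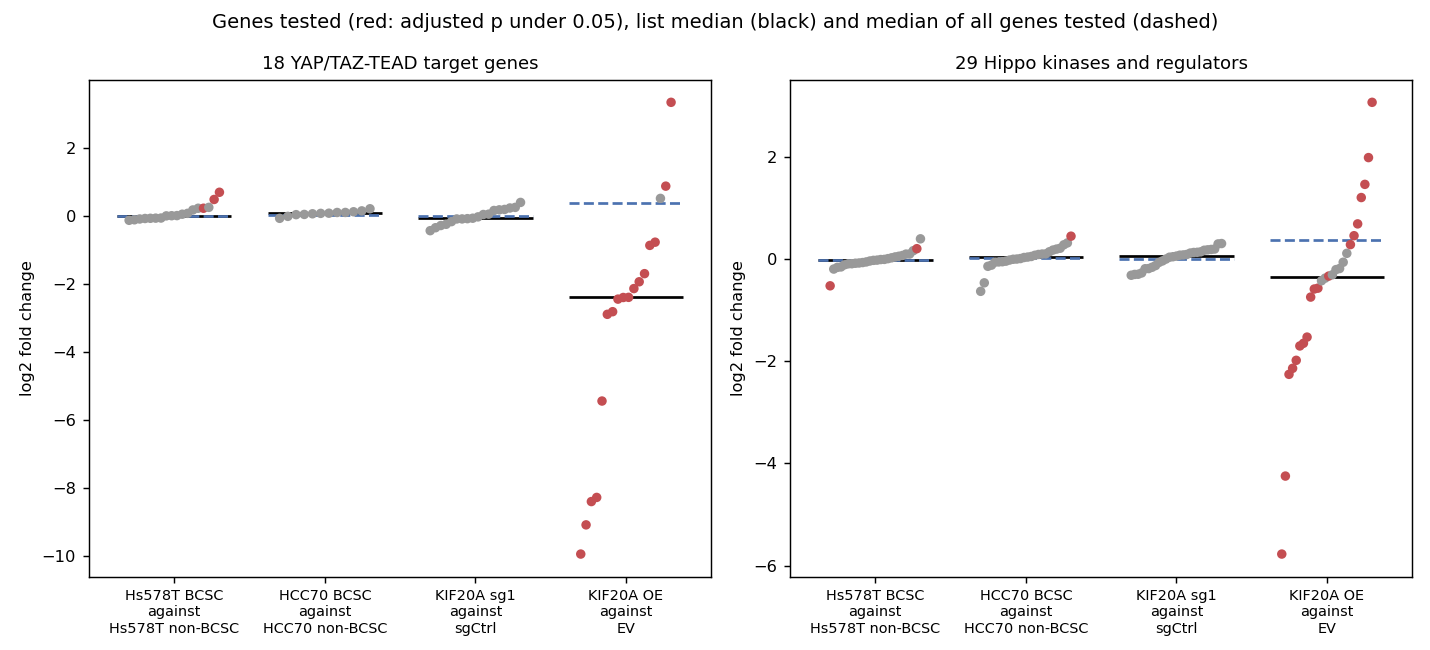
log2 fold change of the tested genes of both lists in the 4 comparisons, one point a gene, red where the adjusted p was under 0.05. Black lines are list medians and dashed lines medians of all genes. In the panel of 18 targets the list median is -2.40 in the libraries labelled KIF20A OE and within -0.05 and 0.07 elsewhere.

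Genes with a like pattern were sought for 3 members by the root mean square (RMS) difference over the 4 log2 fold changes, among 9897 genes tested in all 4 comparisons. The nearest to CCN1 were MAML3 (0.07), FADS2 (0.09) and ECE1 (0.09). CCN2 was nearest to PLXNB3 (0.10), DNAJC15 (0.14) and PXDN (0.16). Among the genes nearest to AMOTL2 were IL27RA and NECTIN2 (0.05 each). The likeness was a description over 4 values, of which the largest was that of the libraries labelled KIF20A OE.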

How the data were processed

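Poly-A RNA-Seq of 24 libraries was analysed from 4 tables. Per the labels, the submitters' processing notes name GRCh38, HISAT2 2.0.5 and featureCounts 1.5.0-p3, and the paper names DESeq2 for its own tests. The authors deposited TPM for Hs578T and HCC70 (columns sum to 1000000), a signal for the sgRNA experiment (reads divided by 1 factor per library, columns of 977394 to 1028621) and CPM for the overexpression experiment. The authors' gene lengths follow from TPM and reads of the sorted lines and were used for MDA-MB-231 too. Whole reads were recovered for 100% of listed genes, within 0.002 of a whole number, and steps were tested on simulated data.

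The main test was limma 3.58.1 with a variance trend (R 4.3.3) on log2(value + 1), for genes whose mean over 6 libraries reached 1, each comparison alone, two-sided, with Benjamini-Hochberg adjustment over all genes tested. The interaction used the 12 sorted libraries. Fold changes on this scale understate those of low genes. Alternatives were a pseudocount of 0.1, no minimum, a minimum of 5, median-of-ratios rescaling, a replicate block, each library left out, recovered reads tested by edgeR 4.0.16 and by DESeq2 1.42.0, and, for shares, GENCODE lengths. All pairs of replicates differed by more than sampling noise. Older symbols were updated through RefSeq for 200 to 1364 genes a table. Named were all members, KIF20A, TEAD2 and TEAD3, markers, of each list at most the 4 genes called with the largest change in each direction, and the 3 nearest genes of CCN1, CCN2 and AMOTL2, of which 1 is not reported here. The members and lists were chosen with earlier results of these data known. Counting intervals are 95% and cover counting error only. Python 3.11.15 with numpy 2.4.6, pandas 2.3.3, scipy 1.17.1 and matplotlib 3.10.9 served for tables, shares and plots.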

Additional observations from a re-analysis of the deposited data

Results flagged for a closer look

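By the interaction test of limma over 12 libraries, the BCSC effect differed between the sorted lines for 1 of 12 targets and 1 of 24 Hippo regulators tested, where 7.11% of all 11666 genes passed, so these shares are near the background. IGFBP3, a secreted binding protein of insulin-like growth factors and a YAP/TAZ-TEAD target, had an effect in Hs578T that exceeded that in HCC70 by 0.41 ± 0.07 (SE, log2; adjusted p = 0.00814), with log2 fold changes of 0.48 and 0.07 in the 2 lines. SCRIB, a polarity scaffold on the list of Hippo regulators, differed by 1.03 ± 0.27 (adjusted p = 0.0419), with 0.40 in Hs578T and -0.63 in HCC70, neither of which passed alone. Cell line and batch cannot be told apart in this test.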

How the results depend on the processing

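No member was called in HCC70 or with sgRNA #1 under any alternative run. In Hs578T, where 0 members were called, 2 were called after rescaling by the median of ratios, 3 by edgeR and 2 by DESeq2. For the interaction 2 were called after rescaling and 0 to 1 with a library left out. In the libraries labelled KIF20A OE 8 to 10 members were called with a library left out. Targets called in Hs578T were 1 to 3 with a library left out, and Hippo regulators 1 to 2 there and 0 to 2 in HCC70. Hippo regulators in HCC70 numbered 3 with a minimum mean of 5, 4 by edgeR and 5 by DESeq2. GENCODE lengths moved the change in the WWTR1 share in Hs578T to 4.01 points and that of the AMOTL1 share in KIF20A OE to -32.9 points. The cause of these shifts was not tested.

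Among the members, the sign turned for some small values that passed no test. Of the called list genes, SCRIB turned in KIF20A OE on rescaling (0.28 to -0.08). TEAD1 and CCN2 in Hs578T became 0.01 after rescaling and by edgeR and DESeq2 (TEAD1 0.013, 0.010 and 0.013, CCN2 0.015, 0.012 and 0.015), and TEAD4 in KIF20A OE became -0.061, -0.10 and -0.10. With a library left out, TEAD1 in Hs578T ran from -0.037 to 0.022, CCN2 there from -0.027 to 0.0050, AMOT in HCC70 from -0.0058 to 0.080, CCN2 with sgRNA #1 from -0.19 to 0.29 and the YAP1 interaction from -0.025 to 0.047.

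Same-numbered libraries correlated at -0.161 to 0.185 (deviations from group means), so the numbers were not taken as pairs. In all, 0 of 3 control libraries in Hs578T and sgRNA, 1 of 3 in HCC70 and 3 of 3 in EV correlated best with their own number. With a replicate block all calls went from 953 to 669 in Hs578T, 374 to 128 in HCC70, 0 to 0 with sgRNA, 10634 to 10545 in KIF20A OE and 830 to 302 in the interaction. Hippo regulators called in Hs578T went from 2 to 1 under the block, and members called stayed at 0, 0, 0, 9 and 0. For the shares, pairing cannot move the mean difference at equal group sizes, so it tested nothing there. Over all genes, rescaling moved the share of calls that were higher from 40.5% to 52.0% in Hs578T and from 21.0% to 44.3% in the interaction, and edgeR and DESeq2 moved it in HCC70 from 80.5% to 58.4% and 54.0%. Calls numbered 753 and 1157 there with these tools, 1808 and 1475 in Hs578T, and 16 with sgRNA by DESeq2. With a library left out they numbered 343 to 865 in Hs578T and 32 to 270 in HCC70. With sgRNA they numbered 144 without sgCtrl replicate 3 and 5 without KIF20A sg1 replicate 2. In HCC70 rescaling left 233. Few or no reads were counted for AMOT in sgCtrl, KIF20A sg1 and EV and for ANKRD1 in Hs578T, which limits how precisely these values are known.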
